A study of Mus musculus with 44 samples.

Results

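Organoids carrying 1 deleted copy of an enhancer beside Cdx2 were compared with wild-type organoids by RNA-seq. The comparison holds 6 libraries of the 44 samples in the series: 3 wild-type and 3 heterozygous, numbered 1 to 3 in the labels, and all genes of the table were used. All 6 were grown from stomach antrum of C57BL/6 mice and overexpressed HNF4A, so no organoid without added HNF4A takes part. The genotype is a germline CRISPR-Cas9 deletion of a regulatory element on the 3' side of Cdx2. A further 3 libraries from mice with 2 deleted copies (homozygous) belong to the same experiment, shared the estimate of spread in the fits, and are given beside the heterozygous values. The age and sex of the mice, the number of mice or clones behind each group, the vector and species of the HNF4A transgene and the coordinates of the deletion are not stated in the sources used here. The question is what a single deleted enhancer copy does to Cdx2 and to the rest of the transcriptome when HNF4A is present.

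CDX2 is a homeodomain transcription factor that directs the development of the intestinal epithelium and maintains its identity in the adult. The healthy stomach lining does not normally express it, and its appearance there marks intestinal metaplasia. HNF4A is a nuclear receptor present in both organs, and in the intestine it activates genes of absorption, the brush border and lipid metabolism.

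The labelled tissue was compared with some of its markers, not all of which are given here. Antral and epithelial genes were present in all 6 libraries: Pdx1, a factor of the antrum and pancreas, was between 22.9 and 61.1 CPM (counts per 1000000 counts of the library, scaled with TMM factors), the mucin gene Muc6 between 493 and 1534, the gastrokine gene Gkn3, known from mucous neck cells, between 1048 and 3765, and the epithelial adhesion gene Epcam between 795 and 1449.6. Among the genes set as parietal cell markers, Atp4b had 0 counts in all 6 and Atp4a was between 2.29 and 4.14 CPM. Gif, also set as a parietal marker, was between 6.36 and 659 CPM. Total counts ran from 8173640 to 11465309, and a count of 3 corresponded to 0.256 to 0.382 CPM. The 10 most abundant genes took 5.06% to 6.82% of the counts and the ribosomal RNA gene Rn45s 0.956% to 2.26%. Replicates of one group differed by 22.6 to 67.9 times the counting variance, so no library was a copy of another.

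Some libraries stood apart from the rest of their group. Heterozygous replicates 2 and 3 and homozygous replicate 3 had the highest summed level of a list of 21 fibroblast and mesenchyme genes, at 1566, 1914 and 1936 CPM. The same sum was 419, 264 and 446 CPM in wild-type replicates 1 to 3 and 816 CPM in heterozygous replicate 1. In homozygous replicates 1 and 2 it was 308 and 508 CPM, in or near the wild-type range. In the wild-type libraries most of that sum was fibronectin, which epithelium can also make (Fn1, 411, 256 and 440.4 CPM). The same held in heterozygous replicate 1, with Fn1 at 718 CPM. In heterozygous replicates 2 and 3 Fn1 was at 683 and 486 CPM. Wild-type replicate 3 differed from the other libraries in sex-linked genes: the Y-linked Ddx3y was at 101 CPM there and at most 0.227 CPM in the other 5, and Xist, expressed from an inactive X chromosome, was at 0.382 CPM against 1135 to 3909 CPM. In bulk RNA, fewer cells of a type and less RNA per cell cannot be told apart.

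**Figure D1:**
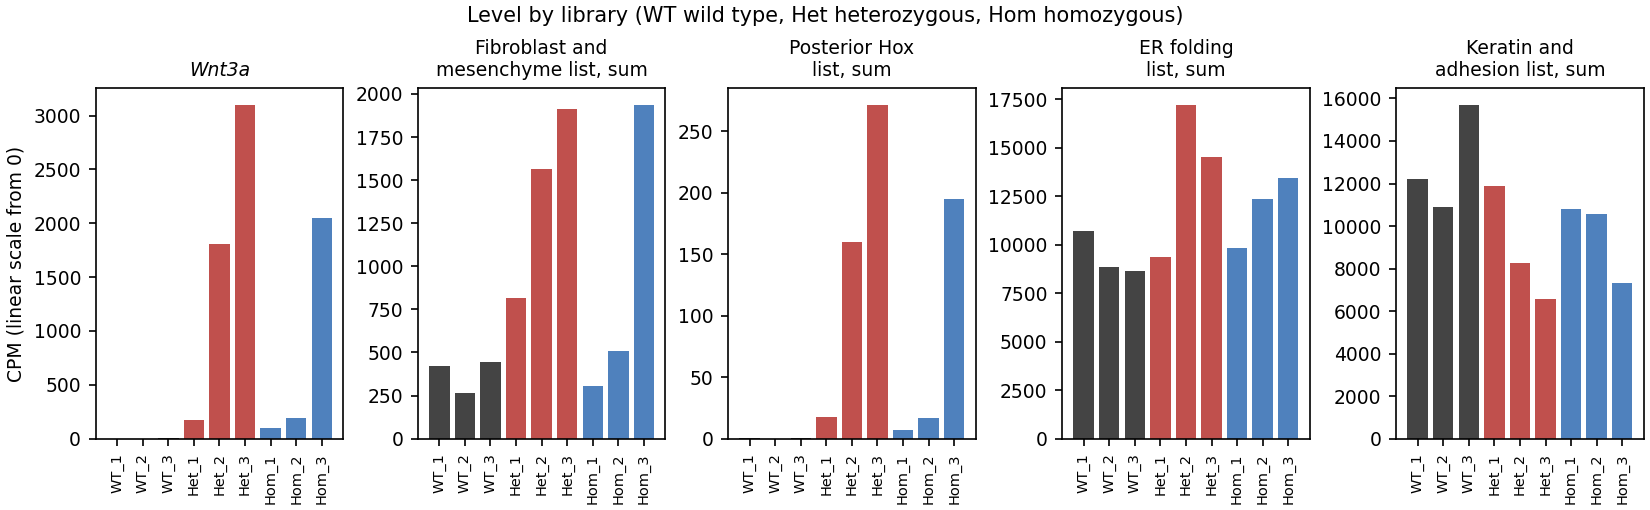
Level of Wnt3a and summed level of 4 gene lists in each of the 9 libraries, in CPM on linear axes from 0, with wild type in grey, heterozygous in red and homozygous in blue. Heterozygous replicates 2 and 3 and homozygous replicate 3 are the highest in Wnt3a, the fibroblast list and the posterior Hox list and the lowest in the keratin and adhesion list; in the ER folding list heterozygous replicates 2 and 3 are the highest.

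Cdx2 had a lower mean in heterozygous than in wild-type organoids, but the groups overlapped. Cdx2 (chromosome 5, 147300900 to 147307249, GRCm38) was at 16.7, 26.8 and 58.5 CPM in wild-type replicates 1 to 3 and at 18.4, 5.55 and 9.31 CPM in heterozygous replicates 1 to 3. These values rest on 186, 223 and 460 reads against 176, 65 and 82 reads. Heterozygous replicate 1 lay above wild-type replicate 1, heterozygous replicates 2 and 3 lay below every wild-type library, and wild-type replicate 3 was the highest of all. The means were 34.03 ± 21.8 CPM (SD, n = 3) and 11.1 ± 6.63 CPM, a log2 fold change of -1.62 ± 0.62 (SE). Cdx2 was not called by edgeR's quasi-likelihood test (adjusted p = 0.511) or by DESeq2 (adjusted p = 0.229). An exact two-sided permutation test on log2 CPM gave p = 0.2, where 3 libraries against 3 cannot go below 0.1. Without wild-type replicate 3 the log2 fold change was -0.98, and with heterozygous replicate 1 as the only heterozygous library it was -0.88.

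Organoids with 2 deleted copies had lower Cdx2 values than those with 1. The homozygous libraries held 0.199, 1.36 and 0.585 CPM, each below every heterozygous library. The log2 fold change of homozygous against heterozygous was -3.91 ± 0.76 (SE), called by DESeq2 (adjusted p = 0.000476) and not by edgeR (adjusted p = 1 over all genes). Same-numbered heterozygous and homozygous libraries deviated from their group means together, and a fit with the replicate number as a block gave -3.91 with the same outcome (edgeR adjusted p = 1). That joint deviation is a measure over all tested genes. For Cdx2 itself the order was reversed, with replicate 1 the highest heterozygous and the lowest homozygous library. The exact permutation p, which does not use the pairs, was 0.1, the smallest this design allows. The homozygous values rest on 2, 14 and 5 Cdx2 reads.

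Of the other listed intestinal transcription factors, edgeR, DESeq2 and limma-voom called 0. The paralog Cdx1 was at 1.44, 5.17 and 10.9 CPM in wild type and 2.72, 1.88 and 2.38 CPM in heterozygous organoids. The groups overlapped, with a log2 fold change of -1.32 ± 0.69 (SE). Hnf4a overlapped between the groups, at 320.0, 443 and 513 CPM against 422, 276 and 342 CPM (-0.29 ± 0.21). Its sign turned to 0.26 when the libraries were scaled on a list of 21 epithelial keratin and adhesion genes in place of all genes, a scaling that moves the median of all genes from -0.0035 to 0.55. Since the species of the transgene is not given, reads of the transgene and of the mouse gene may be counted together.

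Hnf4g, the HNF4 paralog of the intestine, was at 10.1, 20.5 and 25.6 CPM in wild type. It was at 10.9, 8.28 and 8.29 CPM in heterozygous organoids, and heterozygous replicate 1 overlapped wild-type replicate 1 (log2 fold change -1.03 ± 0.38). Gata6, an endodermal zinc finger factor, did not overlap between groups, at 109.5, 132 and 128 CPM against 92.5, 70.8 and 69.5 CPM (-0.67 ± 0.20, DESeq2 adjusted p = 0.0918). Foxq1, a forkhead factor of stomach surface cells, was also lower in every heterozygous library, at 410.3, 488 and 469 CPM against 313, 243 and 254 CPM (-0.76 ± 0.30). Of 23 intestinal transcription factors described, 18 had a negative and 5 a positive fold change. Among the 23, 5 had an edgeR p under 0.05 before adjustment (1125 of all 12593 genes), and the groups did not overlap in 1 (Gata6, lower). Over all genes, 6.15% were lower and 8.76% higher without overlap, and DESeq2 called 2.49% higher. Of 15 gastric factors tested, 12 were negative and 3 positive. The groups did not overlap in 4 lower genes (Pdx1, Foxq1, Foxa1 and Nkx6-2) and 2 higher ones (Irx2 and Trps1). Irx2 had 3 wild-type reads and passed the count filter through libraries where it was high, which fixed its direction. Trps1 was under 1 CPM in every wild-type library, and its direction was likewise tied to the count filter. DESeq2 called Trps1 (adjusted p = 0.00235). The call did not hold with heterozygous replicate 1 as the only heterozygous library (DESeq2 log2 fold change 1.96).

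Genes near Cdx2 on chromosome 5 were examined because an enhancer can act on more than one promoter. Of 17 listed neighbours, 10 were tested, and their median log2 fold change was -0.11 beside -0.0035 for all tested genes (0.43 beside 0.55 with epithelial scaling). Pdx1, whose gene ends 25.1 kb from Cdx2, was at 38.7, 46.1 and 61.1 CPM in wild type and 37.1, 27.9 and 22.9 CPM in heterozygous organoids. All heterozygous libraries lay below all wild-type ones, heterozygous replicate 1 by little, with a log2 fold change of -0.73 ± 0.26 and an edgeR adjusted p of 0.488. The homozygous libraries were at 44.7, 38.9 and 27.04 CPM, a range that overlaps both other groups. The ribosomal protein gene Rpl21, 464 kb away, was at 779.7, 736 and 617 CPM against 597, 575 and 512 CPM (-0.34 ± 0.15), and turned to 0.18 with scaling on epithelial genes. Mtif3, a mitochondrial translation factor 337 kb away, was the remaining neighbour without overlap, at 79.5, 77.6 and 73.9 CPM against 73.1, 70.6 and 73.7 CPM. These are 3 of the 10 tested neighbours, beside 6.15% of all genes lower without overlap. With epithelial scaling 0 neighbours were lower and 1 was higher without overlap.

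**Figure D2:**
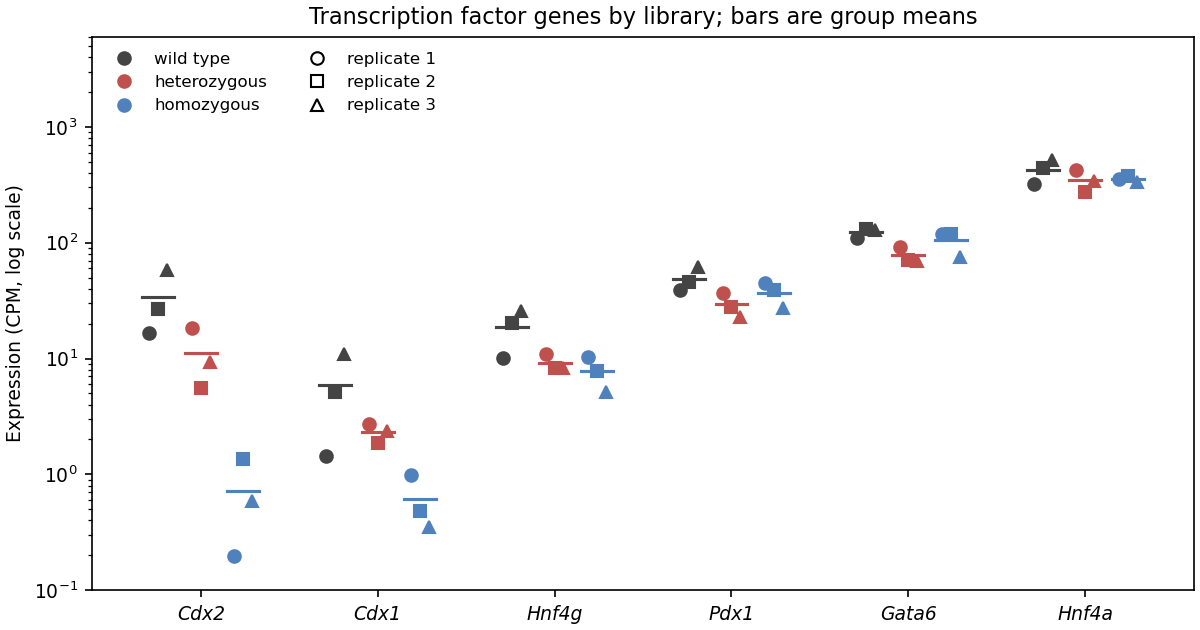
Level of 6 transcription factor genes in each library, in CPM on a log axis, by genotype (colour) and replicate number (marker), with bars at the group means. Cdx2 in heterozygous libraries (5.55 to 18.4 CPM) overlaps wild type (16.7 to 58.5 CPM) and lies above all homozygous libraries, while Pdx1 and Gata6 in heterozygous libraries lie below all wild-type libraries.

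Across the transcriptome the outcome depended on the test. Of 12593 genes tested, edgeR called 0 (0%) at an adjusted p under 0.05, with 1125 at p under 0.05 before adjustment (838 higher, 287 lower) and a smallest adjusted p of 0.457. Limma-voom also called 0, with 757 at p under 0.05 before adjustment. DESeq2 called 313 genes higher (2.49% of the 12581 to which it gave an adjusted p) and 14 lower (0.111%). All heterozygous libraries lay above all wild-type libraries in 1103 genes (8.76%) and below them in 774 (6.15%). With scaling on the epithelial genes the counts without overlap were 2817 higher and 45 lower, of which 1003 and 39 were shared with the first. Under that scaling the lists described below held at most 2 lower genes without overlap each; list medians below are therefore given under both scalings, the second beside the 0.55 of all genes.

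The DESeq2 calls leaned on single libraries. Without wild-type replicates 1, 2 or 3 in turn there were 195, 183 and 185 higher and 41, 13 and 1 lower calls. Without heterozygous replicates 1, 2 or 3 there were 682, 102 and 67 higher and 524, 2 and 3 lower calls. Leaving out the 3 libraries richest in fibroblast transcripts leaves heterozygous replicate 1 alone in its group, and the fit assumes that it varies like the others. Most of the 313 were then no longer called by DESeq2, and all higher calls were among them. Of the 14 lower genes only Aqp4 stayed called. The lower calls of that fit included the Y-linked Kdm5d and Uty, and wild-type replicate 3 was the library with Y-linked reads.

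**Figure D3:**
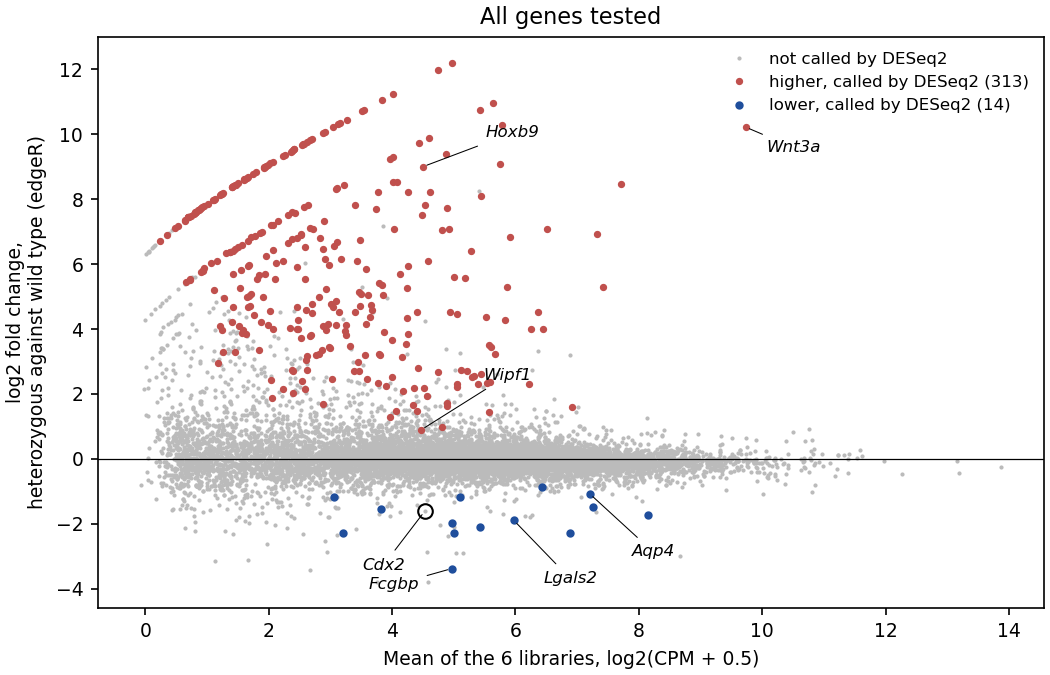
Log2 fold change of heterozygous against wild-type organoids (edgeR) for each tested gene against its mean over the 6 libraries as log2(CPM + 0.5), with the 313 genes called higher by DESeq2 in red and the 14 called lower in blue, and Cdx2 circled. The higher genes sit mostly at low means and large fold changes, and points on the straight diagonal lines are genes with 0 or very few wild-type reads, whose fitted fold change is no measured size; the lower genes lie between -3.38 and -0.88.

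The water channel gene Aqp4 was the lower gene with the smallest p in both edgeR and DESeq2. It was at 209, 187 and 203 CPM in wild-type and 104, 105 and 74.01 CPM in heterozygous replicates 1 to 3. Both groups were tight and far apart, with every heterozygous library well below the lowest wild-type one. The log2 fold change was -1.08 ± 0.18 (SE), with an edgeR adjusted p of 0.457 and a DESeq2 adjusted p of 2.31e-05, and DESeq2 kept the call when any 1 of the 6 libraries was left out. With heterozygous replicate 1 as the only heterozygous library it was still called (-0.94, DESeq2 adjusted p = 0.00225). Scaled on epithelial genes it was at -0.55 against 0.55 for all genes and was not called (DESeq2 adjusted p = 0.268). The homozygous libraries were at 130.4, 129 and 97.8 CPM. Aqp4 is known in the stomach from parietal cells, whose pump gene Atp4a was only between 2.29 and 4.14 CPM here.

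Lgals2, which encodes the sugar-binding galectin-2 of gut epithelium, was at 43.6, 106 and 146 CPM in wild-type and 30.6, 15.4 and 33.1 CPM in heterozygous libraries. The groups did not overlap, although wild-type replicate 1 came close to heterozygous replicate 3. The log2 fold change was -1.90 ± 0.44 (DESeq2 adjusted p = 0.00255). The homozygous libraries were lower again, at 14.2, 9.84 and 8.90 CPM. The glycosyltransferase gene B4galnt2, which completes the Sd(a) blood group sugar of gut mucins, was at 20.3, 45.2 and 81.96 CPM in wild type and 6.50, 18.9 and 11.6 CPM in heterozygotes, again without overlap. The homozygous libraries were at 1.69, 7.31 and 4.80 CPM, of which replicate 2 lay above heterozygous replicate 1. Its log2 fold change in heterozygotes was -1.99 ± 0.62 (DESeq2 adjusted p = 0.0487). Of 21 galectin and glycosyltransferase genes tested, 18 had a negative and 3 a positive fold change, 6 lower and 2 higher members did not overlap (6.15% and 8.76% of all genes), and the median was -0.37. With epithelial scaling 0 lower members were free of overlap and the median was -0.02 against 0.55 for all genes, and without the 3 fibroblast-rich libraries it was -0.06.

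To show what lies in front of these genes, RefSeq promoters (GRCm38.p6, 250 bases before to 50 after the start) were searched on both strands for TTTATNG, a core that CDX factors and posterior HOX factors recognise, and for CAAAGTCCA, a strong HNF4 site; the motifs share no overlap in the windows shown. Of the 14 genes DESeq2 called lower, 11 had a promoter in the table. TTTATNG was found in 2 of them (Trim31 and Lgals2), and in 671 of 9654 promoters of tested genes (6.95%) and 3584 of all 32851 (10.9%). CAAAGTCCA was found in 2 (Cyp2c65 and Trim31), and in 42 of the tested genes' promoters (0.435%) and 156 of all (0.475%). A match of letters is a description of sequence and not evidence of binding. The 250 bases before the start of the 3 genes with a match are printed because they are the called genes in which these letters occur, with the motifs in capitals on the gene's own strand: Lgals2 at chr15:78855530-78855779 (minus strand), Trim31 at chr17:36897880-36898129 (plus strand) and Cyp2c65 at chr19:39060756-39061005 (plus strand).
Lgals2: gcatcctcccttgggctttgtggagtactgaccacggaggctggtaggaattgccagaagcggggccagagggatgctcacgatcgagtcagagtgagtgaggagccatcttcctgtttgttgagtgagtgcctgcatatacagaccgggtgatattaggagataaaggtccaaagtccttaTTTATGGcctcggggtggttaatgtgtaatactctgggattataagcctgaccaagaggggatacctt
Trim31: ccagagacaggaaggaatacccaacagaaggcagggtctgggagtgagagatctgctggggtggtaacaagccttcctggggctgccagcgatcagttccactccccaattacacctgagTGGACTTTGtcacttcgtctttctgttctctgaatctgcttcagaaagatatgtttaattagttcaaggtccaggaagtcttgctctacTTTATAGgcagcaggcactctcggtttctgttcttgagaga
Cyp2c65: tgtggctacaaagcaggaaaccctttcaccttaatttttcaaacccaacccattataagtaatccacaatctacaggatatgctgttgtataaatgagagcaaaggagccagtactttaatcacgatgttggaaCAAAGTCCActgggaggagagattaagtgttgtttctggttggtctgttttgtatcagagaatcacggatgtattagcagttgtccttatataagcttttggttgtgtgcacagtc

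In Lgals2 the first base of TTTATGG stands 68 bases before the start, and in Trim31 that of TTTATAG 41 bases before it. Trim31 carries CAAAGTCCA on the opposite strand, read as TGGACTTTG, from 130 bases before the start, and Cyp2c65 carries it from 116 bases before. Trim31 encodes a ubiquitin ligase of the gut epithelium. It was at 4.68, 8.54 and 30.2 CPM in wild type and 4.72, 1.88 and 2.27 CPM in heterozygous organoids, and heterozygous replicate 1 lay just above wild-type replicate 1 (log2 fold change -2.29 ± 0.68, DESeq2 adjusted p = 0.0386). Cyp2c65, a cytochrome P450, was at 23.9, 40.4 and 141 CPM against 15.9, 13.1 and 19.1 CPM without overlap (-2.10 ± 0.68, DESeq2 adjusted p = 0.042). Wild-type replicate 3 was the highest library for both.

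The remaining genes called lower by DESeq2 have roles in mucus, defence and transport. Among mucus and surface genes, the mucus protein gene Fcgbp was at 5.67, 16.00 and 147 CPM against 8.59, 4.10 and 3.41 CPM (-3.38 ± 1.06), and most of its wild-type mean came from replicate 3. Spink4, a protease inhibitor of goblet cells, was at 8.99, 21.8 and 30.3 CPM against an even 7.23, 6.91 and 6.58 CPM (-1.55 ± 0.43) without overlap. Lypd8, a surface protein that keeps flagellated bacteria off the colonic epithelium, was at 44.6, 135 and 408 CPM against 69.2, 16.8 and 34.96 CPM (-2.28 ± 0.76), with overlap through heterozygous replicate 1.

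Pycard, the adaptor of the inflammasome, was at 32.2, 43.7 and 64.1 CPM in wild type and 29.6, 14.9 and 17.5 CPM in heterozygous organoids without overlap (-1.18 ± 0.33). Prap1, a secreted gut protein linked to lipid absorption, was at 198, 229.6 and 877 CPM against 169, 124 and 97.1 CPM (-1.74 ± 0.55), lower in every heterozygous library. Sult1c2, a sulfotransferase, was at 127, 259.9 and 289 CPM against 83.6, 70.7 and 85.2 CPM (-1.49 ± 0.45), and its heterozygous values were close together. In all 3 genes wild-type replicate 3 was the highest library.

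Slc23a3, of the ascorbate transporter family, was even within wild type at 10.1, 10.9 and 11.6 CPM and lower in each heterozygous library at 6.71, 4.61 and 3.06 CPM (-1.18 ± 0.34). Tspan12, a tetraspanin that aids Frizzled signalling, was at 98.2, 87.96 and 148 CPM against 73.4, 58.2 and 49.9 CPM (-0.88 ± 0.25), again without overlap. Wdr72, a protein of vesicle trafficking, was at 13.1, 81.6 and 63.1 CPM against 18.4, 6.40 and 7.49 CPM (-2.29 ± 0.66), with wild-type replicate 1 inside the heterozygous range. In all, 10 of the 14 had no overlap between groups; the exceptions were Fcgbp, Wdr72, Lypd8 and Trim31. Their DESeq2 adjusted p-values ran from 2.31e-05 (Aqp4) to 0.0494 (Tspan12). Without wild-type replicate 3, the library with Y-linked reads, Aqp4 was the only one of the 14 still called, and the same held without the 3 libraries richest in fibroblast transcripts. With those left out, and 1 heterozygous library remaining, the edgeR log2 fold changes of the 14 were all still negative, from -2.91 (B4galnt2) to -0.60 (Tspan12). With epithelial scaling DESeq2 called 477 genes higher and 3 lower, and the 3 were Lypd8, Fcgbp and Wdr72, in which the groups overlap.

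**Figure D4:**
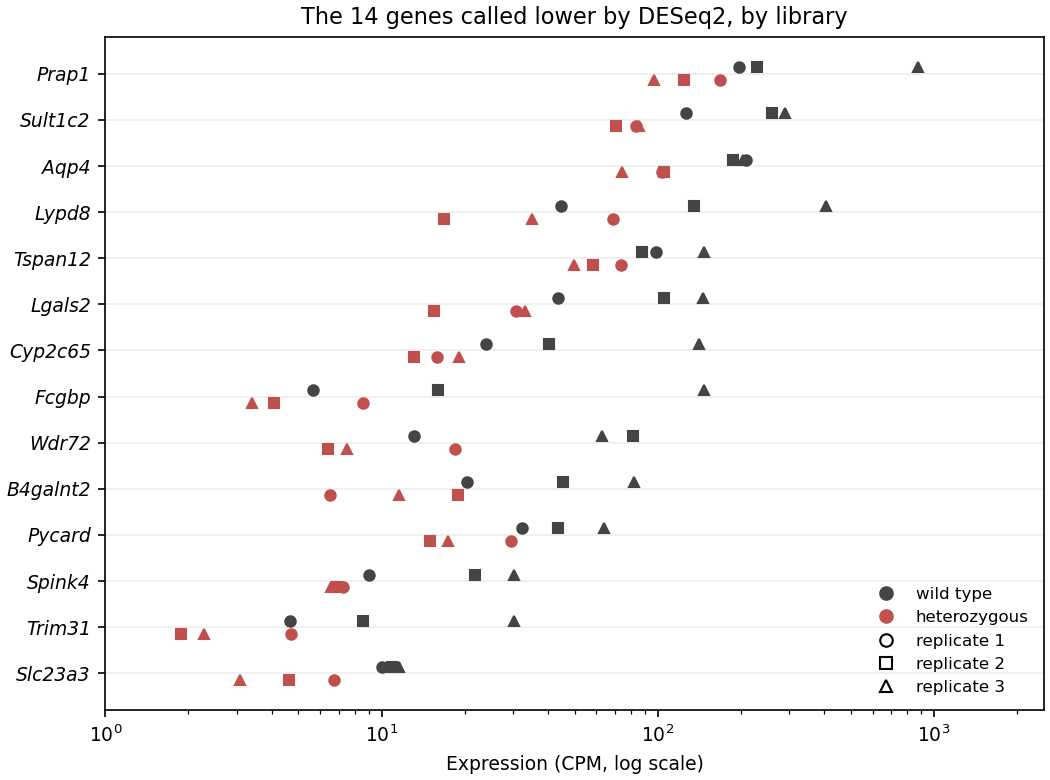
Level of the 14 genes called lower by DESeq2 in the wild-type (grey) and heterozygous (red) libraries, in CPM on a log axis, with a marker for each replicate number. Aqp4 is tight in both groups and Slc23a3 in wild type, whereas in Fcgbp, Lypd8, Prap1 and Cyp2c65 wild-type replicate 3 (triangle) lies far to the right of the other libraries.

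Most absorptive genes had negative fold changes in heterozygous organoids, without passing a test: edgeR called 0 genes of these lists and DESeq2 called 0 lower. In the brush border, the adhesion genes and actin core gave 18 negative and 2 positive fold changes of 20 tested, 4 of them lower without overlap (6.15% of all genes), with a median of -0.38 (0.14 against 0.55 for all genes with epithelial scaling). The cadherin gene Cdh17 was at 37.7, 55.95 and 142 CPM in wild type and 35.4, 27.4 and 34.1 CPM in heterozygous organoids, lower in every heterozygous library (-1.28 ± 0.45, DESeq2 adjusted p = 0.144). Calml4, the light chain that serves the intermicrovillar links, was at 115, 158 and 153 CPM against 103, 83.6 and 93.1 CPM, also without overlap (-0.61 ± 0.18). The protocadherin genes of those links overlapped: Cdhr5 was at 22.04, 36.2 and 50.8 CPM against 17.8, 17.4 and 22.1 CPM (-0.92 ± 0.35) and Cdhr2 at 136, 177 and 312 CPM against 138, 105 and 111 CPM (-0.82 ± 0.33). In homozygous organoids Cdhr5 was at 4.18, 9.35 and 6.20 CPM.

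Nutrient uptake genes gave 20 negative and 3 positive fold changes of 23 tested, with a median of -0.65 (-0.06 against 0.55 with epithelial scaling). The groups did not overlap in 2 of the 23, a share near the 6.15% of all genes. Slc5a1, the sodium-glucose cotransporter SGLT1, was at 3.96, 18.05 and 18.7 CPM in wild type and 2.93, 2.22 and 2.84 CPM in heterozygous organoids. Its heterozygous libraries were even and all below wild-type replicate 1, the lowest of its group (-2.34 ± 0.73, DESeq2 adjusted p = 0.052). Cybrd1, the ferric reductase of iron uptake and the most abundant gene of the list, was at 2001, 1869 and 3329 CPM against 1092, 1267 and 1152 CPM (-1.04 ± 0.37).

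In the guanylin pathway, which sets fluid secretion, the receptor gene Gucy2c was at 15.7, 33.8 and 67.4 CPM in wild type and 19.2, 15.4 and 19.9 CPM in heterozygous organoids and overlapped through wild-type replicate 1 (-1.10 ± 0.44). Car2, the carbonic anhydrase of bicarbonate transport, had no overlap, at 1003, 1282 and 1931 CPM against 970.2, 492 and 539 CPM (-1.07 ± 0.34, DESeq2 adjusted p = 0.0555). The receptor for vasoactive intestinal peptide, Vipr1, had none either, at 7.02, 8.66 and 6.87 CPM against 2.93, 2.22 and 1.25 CPM (-1.81 ± 0.75). Of 12 guanylin and ion transport genes tested, 2 were lower without overlap, beside 6.15% of all genes. Digestive hydrolases were mixed, with 9 negative and 5 positive fold changes of 14 tested and a median of -0.22 (0.33 against 0.55 with epithelial scaling, -0.64 without the 3 fibroblast-rich libraries). Mgam, the brush border maltase-glucoamylase, was lower in each heterozygous library at 83.7, 62.3 and 35.2 CPM against 90.8, 84.6 and 132 CPM (-0.76 ± 0.45), whereas the aminopeptidase gene Anpep spanned 65.8 to 588 CPM with full overlap. Another aminopeptidase gene, Enpep, was called higher by DESeq2, from 0.0899, 0 and 0 CPM to 0.838, 4.95 and 3.63 CPM (adjusted p = 0.0227), and did not pass the count filter without the 3 fibroblast-rich libraries. Cps1, the first enzyme of the urea cycle and also an enterocyte gene, was at 192, 468 and 467 CPM against 216, 91.3 and 146 CPM with overlap (-1.31 ± 0.53).

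Genes of mucus and of the stomach surface had lower values in most members. Intestinal goblet genes had 9 negative and 2 positive fold changes of 11 tested, with a median of -0.64 (-0.14 against 0.55 with epithelial scaling). DESeq2 called 2 lower, Fcgbp and Spink4, beside 0.111% of all genes. The trefoil peptide gene Tff3 ranged widely, from 0.0899, 6.86 and 25.3 CPM in wild type to 1.78, 0.512 and 0.681 CPM in heterozygotes (-3.42 ± 1.45), and wild-type replicate 1 was the lowest of the 6. The transmembrane mucin gene Muc13 was at 5.76, 63.1 and 79.7 CPM against 5.45, 4.69 and 18.5 CPM (-2.38 ± 0.85), again with wild-type replicate 1 among the heterozygous values. For both genes the lower mean rests on wild-type replicates 2 and 3.

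Pit mucous genes, those of the gastric surface, had 14 negative and 2 positive fold changes of 16 tested, with a median of -0.74 (-0.29 against 0.55 with epithelial scaling). In 4 (1 with epithelial scaling) the heterozygous values were lower without overlap, beside 6.15% of all genes: Muc1, Psca, Tspan8 and Vsig1. Vsig1, a junctional protein of gastric epithelium, was at 175, 266 and 219 CPM against 169, 106 and 97.7 CPM (-0.82 ± 0.30), and Psca, a surface antigen of the gastric pit, at 22.3, 22.7 and 33.9 CPM against 13.6, 15.4 and 12.4 CPM (-0.93 ± 0.34). Gkn3, the most abundant gene counted in this list although it is known from neck rather than pit cells, overlapped fully, at 2079, 3765 and 1048 CPM against 2090.0, 2319.9 and 3077 CPM. Gland, neck and chief cell genes showed no common direction, with 6 negative and 8 positive fold changes and a median of 0.11 (-0.28 without the 3 fibroblast-rich libraries), and Muc6 was at 943, 858 and 493 CPM against 1093, 1534 and 772 CPM. Stem cell and Wnt target genes were split as well, with 9 and 12. Enteroendocrine genes had 6 negative and 7 positive fold changes and differed among the heterozygous libraries. Their summed level was 33.4, 60.04 and 67.6 CPM in wild-type and 14.5, 61.8 and 72.8 CPM in heterozygous replicates 1 to 3, so that replicate 1 was the lowest library, and their median went from 0.13 to -1.79 without the 3 fibroblast-rich libraries.

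Keratin and adhesion genes had lower values as well. All 21 tested had a negative fold change, with a median of -0.47 (0.04 against 0.55 for all genes when this list itself set the scale). The groups did not overlap in 4 (Epcam, Cdh1, Krt8 and Grhl2), beside 6.15% of all genes lower without overlap. Krt8 was at 2403, 1616 and 3059 CPM in wild type and 1554, 1576 and 918 CPM in heterozygous organoids (-0.81 ± 0.35). The summed level of the list was 12229, 10878 and 15695 CPM in wild-type and 11871, 8249.6 and 6563 CPM in heterozygous replicates 1 to 3, lowest in the libraries that were highest in the fibroblast list. Without those libraries the medians were -0.10 for keratin and adhesion genes, -0.14 for the brush border, -0.25 for pit genes, -0.38 for goblet genes and -0.76 for nutrient uptake, against -0.026 for all genes. Of these 5 lists, nutrient uptake was the one at least as far from 0 as with all libraries.

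Most detoxification genes had negative fold changes. Of 40 xenobiotic and bile acid genes tested, 35 had a negative and 5 a positive fold change, 9 were lower without overlap (6.15% of all genes; 0 of the 40 with epithelial scaling), and the median was -0.74 (-0.12 against 0.55 with epithelial scaling, and -1.16 with heterozygous replicate 1 as the only heterozygous library). Cyp2c65 and Sult1c2 were the DESeq2 calls among them, beside 0.111% of all genes called lower. Ugt2b34, a glucuronosyltransferase, was the most abundant, at 1271, 1679.9 and 2039 CPM against 1235, 787 and 892 CPM (-0.78 ± 0.25), where heterozygous replicate 1 almost reached wild-type replicate 1. Its relative Ugt2b35 was at 170.2, 209 and 228 CPM against 81.95, 106 and 140.3 CPM (-0.89 ± 0.28), with heterozygous replicate 1 the lowest library. These paralogs are similar in sequence and may share reads.

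The sulfotransferase genes Sult1d1 and Sult1b1 did not overlap either. Sult1d1 was at 85.3, 158 and 152 CPM in wild type and 48.9, 65.1 and 79.01 CPM in heterozygous organoids, and Sult1b1 at 69.2, 107 and 104 CPM against 42.9, 50.9 and 50.9 CPM; in both genes heterozygous replicate 1 was the lowest library. Fatty acid oxidation and ketogenesis genes had 18 negative and 4 positive fold changes of 22, with a small median of -0.25 (0.31 against 0.55 with epithelial scaling). Bdh1, which interconverts ketone bodies, was at 117, 114 and 143 CPM against 85.9, 62.2 and 54.1 CPM without overlap (-0.89 ± 0.28). Of the 22, 5 were lower and 1 higher without overlap, beside 6.15% and 8.76% of all genes (1 and 1 with epithelial scaling). A list of 24 hepatocyte-type HNF4A targets had no common direction (12 negative, 12 positive) and no gene without overlap.

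Among genes of defence, 13 of 14 inflammasome and gasdermin genes had a negative fold change, with a median of -0.70 (-0.17 against 0.55 with epithelial scaling, -0.19 with heterozygous replicate 1 alone). Besides Pycard, the cytokine gene Il18 and the sensor gene Naip2 did not overlap, at 9.44, 15.04 and 18.8 CPM against 9.22, 5.55 and 7.15 CPM and 59.9, 59.4 and 74.8 CPM against 55.4, 47.9 and 50.7 CPM. These are 3 of the 14 tested, beside 6.15% of all genes lower without overlap, and 1 remained with epithelial scaling. Naip genes are near-identical copies and their reads are uncertain. Interferon and antigen presentation genes leaned the other way, with 19 positive and 8 negative fold changes of 27 and a median of 0.18 (0.79 against 0.55 with epithelial scaling, 0.07 without the 3 fibroblast-rich libraries). The peptide transporter gene Tap1 was at 22.5, 20.7 and 21.5 CPM in wild type and 36.1, 23.5 and 33.5 CPM in heterozygous organoids, and Stat2, a factor of interferon signalling, at 22.3, 19.01 and 32.8 CPM against 34.2, 33.3 and 42.8 CPM, both without overlap. Of the 27, 3 were higher without overlap, a share near the 8.76% of all genes.

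**Figure D5:**
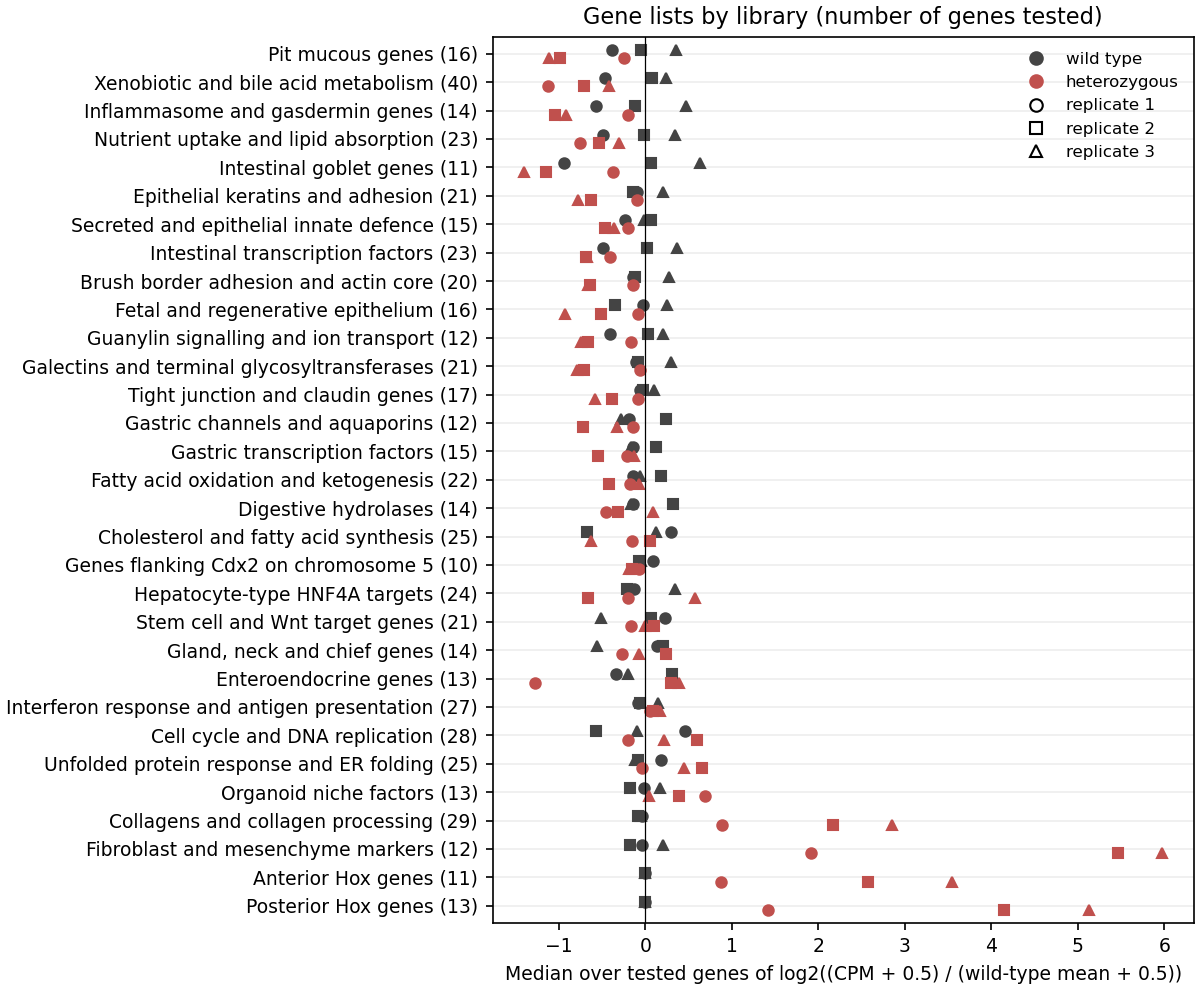
Median over the tested genes of each list of the log2 ratio of CPM + 0.5 to the wild-type mean + 0.5, in each wild-type (grey) and heterozygous (red) library, for the lists with at least 10 tested genes, with markers for the replicate numbers. In most epithelial lists heterozygous replicate 1 (circle) lies among the wild-type libraries and replicates 2 and 3 lie to the left, while in the fibroblast and Hox lists all 3 heterozygous libraries lie to the right, replicate 1 nearest to wild type.

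The genes with higher values were of another kind. Of the 313 that DESeq2 called higher, 227 had a wild-type mean under 1 CPM and 75 had no wild-type read at all. All heterozygous libraries lay above all wild-type libraries in 300 of them. Heterozygous replicate 1 was the lowest heterozygous library in 311, against 5431 of all 12593 genes, and the median level was 5.44 times higher in replicate 2 and 7.95 times higher in replicate 3 than in replicate 1. In the homozygous group, replicate 3 was the highest library in all 313. These genes were chosen for higher heterozygous than wild-type values, so their separation of those groups restates the choice. They also differed between libraries within a genotype.

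Mesenchymal genes stood out among them. Of 21 fibroblast and mesenchyme markers 12 were tested, and all 12 were higher without overlap (8.76% of all genes). DESeq2 called 10 of them (2.49% of all genes). The other 9 markers of the list did not pass the count filter, so the tested members are those with reads in some group. Of the 12, 5 had at most 3 wild-type reads in all and passed the filter through libraries where they were high, which fixed their direction. Serpinh1, Col1a1, Vim and Sparc, given below, were each under 1 CPM in some wild-type library. They too passed the filter only with the libraries where they were high, so the counts of higher members partly follow from the filter. Serpinh1, the collagen chaperone, was at 0.720, 1.68 and 1.15 CPM in wild type and 49.3, 526 and 669 CPM in heterozygous organoids. Heterozygous replicate 1 was far above wild type and about an order of magnitude below replicates 2 and 3 (8.47 ± 1.71, DESeq2 adjusted p = 1.57e-06). Col1a1, a chain of type I collagen, was at 0.899, 0.842 and 2.29 CPM against 27.4, 190.2 and 319.7 CPM (7.08 ± 1.58), and the intermediate filament gene Vim at 3.96, 3.13 and 0.382 CPM against 35.1, 371 and 538 CPM (6.93 ± 1.63). In homozygous replicates 1 to 3 Col1a1 was at 8.16, 27.4 and 257 CPM. Of 29 collagen and collagen-processing genes tested, 28 had a positive fold change, 17 were higher without overlap (8.76% of all genes) and DESeq2 called 12 (2.49%). Of the 29, 5 had at most 3 wild-type reads in all, and their direction was likewise fixed by the count filter. The matrix protein gene Sparc had the same order, at 0.180, 0 and 0.382 CPM against 15.9, 109 and 193 CPM (9.08 ± 1.87).

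Col6a3, a chain of type VI collagen, had 1 read in the 3 wild-type libraries and was at 17.7, 133 and 144 CPM in heterozygous ones, a ratio of 2719.9 (95% counting interval 488 to 107464). Its homozygous values were 3.68, 15.6 and 172 CPM in replicates 1 to 3. The defining fibroblast genes were not all present: Lum had 0 counts in all 6 libraries, and Dcn, Thy1 and the smooth muscle gene Acta2 stayed at or under 0.602 CPM. Of 10 smooth muscle and pericyte markers 3 were tested: Mcam, a pericyte and endothelial surface protein, was higher at 8.81, 7.34 and 3.82 against 22.2, 26.3 and 37.01 CPM and the pericyte proteoglycan gene Cspg4 at 0, 0.722 and 0.509 against 2.10, 18.9 and 16.8 CPM, both called by DESeq2, and Tagln was lower without overlap. Neither call held with heterozygous replicate 1 alone (DESeq2 adjusted p = 0.493 and 1). Of 13 endothelial markers 5 were tested and 2 were higher without overlap (Eng and Plvap). Of 16 immune markers 5 were tested and 1 was (Cd79a), beside 8.76% of all genes. Col6a3, Cspg4, Eng, Plvap and Cd79a were each under 1 CPM in some wild-type library. They passed the count filter only with the libraries where they were high, so their higher values partly follow from that filter. With heterozygous replicate 1 as the only heterozygous library, DESeq2 still called Serpinh1 (log2 fold change 5.40, adjusted p = 7.55e-09), Col1a1 (4.37, adjusted p = 0.000147) and Vim (3.81, adjusted p = 0.00845). The part of these transcripts in the other differences between the groups was not tested.

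Hox genes, which mark position along the body axis, were near 0 in wild-type organoids. Of 22 posterior Hox genes 13 were tested, and of 17 anterior Hox genes 11. Each of these had at most 3 wild-type reads in all, so they passed the count filter through the libraries where they were high, and their direction was fixed by that filter. DESeq2 called 12 and 8 of them, beside 2.49% of all genes called higher. The summed posterior level was 0.809, 0 and 0.255 CPM in wild-type and 17.6, 159.8 and 272 CPM in heterozygous replicates 1 to 3, and 6.97, 16.96 and 195 CPM in the homozygous ones. Hoxb9 had 2 wild-type reads and was at 6.39, 60.9 and 65.4 CPM in heterozygous libraries, a ratio of 613 (95% counting interval 169 to 5063). Hoxc8 had none, and against a floor of 3 counts over the wild-type group it was at least 104-fold higher, at 1.99, 14.9 and 17.03 CPM. Replicate 1 was the lowest of the heterozygous libraries for each of these.

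Some secreted factors used in gut organoid culture were high in the same libraries. Of 13 niche factors tested, 8 had a positive and 5 a negative fold change, and 4 were higher without overlap (8.76% of all genes). DESeq2 called 2 higher, Wnt3a and Nog, beside 2.49% of all genes. Wnt3a, Nog and Rspo3 were each under 1 CPM in some wild-type library. The wild-type reads alone would not have brought these genes into the test. Their higher values therefore follow in part from the count filter, and the shares of all genes are no even comparison for them. Wnt3a, a Wnt ligand, was at 0, 0.241 and 4.33 CPM in wild type and 175, 1809 and 3099 CPM in heterozygous organoids, which ranked it 29th and 8th of the tested genes in replicates 2 and 3 (10.22 ± 2.01, DESeq2 adjusted p = 2.76e-05). With heterozygous replicate 1 as the only heterozygous library Wnt3a was not called (6.86, DESeq2 adjusted p = 0.753), while Nog was (5.00, adjusted p = 0.0268). The homozygous libraries held 95.1, 196 and 2053 CPM of Wnt3a. Nog, a BMP antagonist, was at 0.180, 0 and 0.382 CPM against 5.87, 55.4 and 73.4 CPM (7.83 ± 1.89), and the Wnt amplifier Rspo3 at 4.05, 2.53 and 0 CPM against 5.55, 53.9 and 69.2 CPM (4.23 ± 1.33, DESeq2 adjusted p = 0.124). In homozygous replicates 1 to 3 Nog was at 1.79, 5.85 and 73.4 CPM and Rspo3 at 5.08, 12.6 and 64.04 CPM. In all 3 genes heterozygous replicate 1 was the lowest of its group. Lgals1, the galectin of mesenchyme, was at 11.96, 8.06 and 5.09 CPM against 41.5, 408 and 548 CPM (5.30 ± 1.24), in the opposite direction to Lgals2, and was not called with heterozygous replicate 1 alone (2.31, DESeq2 adjusted p = 0.065).

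A smaller set of higher genes was even across the heterozygous libraries. It was looked for after the values were seen: among genes with a mean of at least 5 CPM in either group and no overlap, the heterozygous libraries stayed within 1.5-fold of each other in 424 of 878 higher and 624 of 725 lower genes. Wipf1, an actin regulator that binds WASP, was at 13.3, 14.4 and 17.8 CPM in wild type and 23.9, 30.4 and 30.3 CPM in heterozygous organoids. The groups were apart and each was tight (0.89 ± 0.19, DESeq2 adjusted p = 0.0039), and the homozygous libraries were at 26.3, 22.8 and 29.7 CPM. Mcc, a regulator of Wnt signalling and cell migration, was at 12.9, 6.62 and 8.91 CPM against 29.4, 28.4 and 31.8 CPM (1.65 ± 0.42, DESeq2 adjusted p = 0.0121). Gja1, the gap junction protein connexin 43, was at 25.4, 19.6 and 31.2 CPM against 74.1, 69.99 and 62.2 CPM (1.44 ± 0.42, DESeq2 adjusted p = 0.0386). The evenness of these 3 genes across heterozygous libraries was a condition of their choice. Homozygous replicates 1 to 3 were at 18.1, 12.4 and 40.04 CPM for Mcc and at 30.95, 19.5 and 73.05 CPM for Gja1. In both genes homozygous replicate 3, which was high in the fibroblast list, was the highest of its group. With heterozygous replicate 1 as the only heterozygous library DESeq2 called Gja1 (1.55, adjusted p = 0.0447) and not Mcc (1.64, adjusted p = 0.199) or Wipf1 (0.66, adjusted p = 1).

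Genes of protein folding in the endoplasmic reticulum were highest in heterozygous replicates 2 and 3. Of 25 tested, 21 had a positive and 4 a negative fold change, with a median of 0.44 (1.03 against 0.55 with epithelial scaling). Of the 25, 3 were higher without overlap (Canx, Hyou1 and Edem1), beside 8.76% of all genes. The chaperone gene Hyou1 was at 234, 225 and 248 CPM in wild type and 282, 583 and 458 CPM in heterozygous organoids (0.90 ± 0.27, DESeq2 adjusted p = 0.0518). Creld2, a stress-induced folding factor, was at 46.7, 36.3 and 37.8 CPM against 38.5, 178 and 130.2 CPM (1.52 ± 0.53), with heterozygous replicate 1 inside the wild-type range. The summed level of the list was 10716, 8836 and 8653 CPM in wild-type and 9353, 17199 and 14530.4 CPM in heterozygous replicates. Without the 3 libraries richest in fibroblast transcripts the median was -0.04 and Creld2 turned to -0.07. Cell cycle genes leaned the same way without any higher gene free of overlap: 23 of 28 were positive, the median was 0.18 (0.78 against 0.55 with epithelial scaling), and it was -0.21 without those libraries.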

How the data were processed

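RNA was measured by poly-A RNA-seq with 150 bp paired reads, per the labels' protocols. The deposited values are the authors' raw count per gene symbol and library, from STAR alignments to mm10, per the submitters' processing notes; how reads were assigned to genes, with which annotation and strand rule, is not stated in the sources used here, so overlapping genes may share reads. No column was left unmapped (0). Of 19733 genes, 12593 passed edgeR's filterByExpr (minimum count 10, minimum total 15).

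All 9 libraries of the enhancer experiment were fitted together in edgeR 4.0.16 (R 4.3.3; TMM, robust quasi-likelihood F test, two-sided, Benjamini-Hochberg threshold 0.05), with the contrast of heterozygous minus wild type. The standard error is the log2 fold change over the square root of F, and CPM use TMM-scaled totals. DESeq2 1.42.0 and limma 3.58.1 (voom) were alternatives, as were other size factors, no count filter, the 6 libraries alone, a replicate block and each library left out. Alternatives without the 3 libraries highest in the fibroblast list, and with size factors from keratin and adhesion genes, were chosen after seeing the data. Named genes are Cdx2, its relatives and neighbours, all genes DESeq2 called lower, the genes without overlap that had the smallest p, and the leading members of each list; others were chosen after their values were seen. The comparison and the 41 gene lists were chosen with earlier results of these data known, and lists were not tested but described. The labels do not say that replicates came from separate mice, so p-values measure the spread between libraries, which may be technical. Intervals and floors cover counting error only. The tests were tried on simulated data with known answers. Same-numbered wild-type and heterozygous libraries did not deviate together, so numbers were not taken as pairs there; same-numbered heterozygous and homozygous libraries did (correlations 0.53, 0.22 and 0.37). Positions and promoters come from RefSeq (GRCm38.p6). A gene of the intestinal factor list is not reported here.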

Additional observations from a re-analysis of the deposited data

How the results depend on the processing

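The count of called genes depended on the tool and the libraries. It was 0 by edgeR with all settings other than the replicate block, including each library left out (0 to 0 genes, 488 to 2650 at an unadjusted p under 0.05), and 51 with the replicate block (50 higher, and Aqp4 lower), although same-numbered wild-type and heterozygous libraries deviated apart (correlations -0.31, -0.11 and -0.29). DESeq2 called 327, 37 without the 3 libraries highest in the fibroblast list and 480 with epithelial scaling (477 higher, 3 lower), which also gave 2817 higher and 45 lower genes without overlap. Cdx2 in heterozygotes stayed negative under every alternative run, from -2.18 to -0.88 (each library left out, -2.18 to -0.98; replicate block -1.51); homozygous against heterozygous Cdx2 was -3.94 by DESeq2, -3.91 with the replicate block and -4.79 to -3.34 with each library left out. Of the genes whose fold change is printed, Hnf4a (0.26 by edgeR and 0.26 by DESeq2) and Rpl21 (0.18 by both) turned positive with epithelial scaling, and Creld2 turned negative without the 3 fibroblast-rich libraries (-0.069 by edgeR, -0.064 by DESeq2); the cause was not tested. Between-library spread, not depth, limits most values, and genes under 1 CPM in wild type are limited by depth.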
